A study of Mus musculus with 51 samples.

Results

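The Notch pathway members described here were 10 of the 24421 genes in the count files. They comprised the ligands Dll1 and Jag1, the receptors Notch1, Notch2 and Notch3, the feedback inhibitor Nrarp and the effectors Hes1, Hes5, Hey1 and Hey2, taken by gene symbol, and all 10 symbols had a row. RNA of the prefrontal cortex was sequenced from 17 adult male C57BL/6J mice, an inbred strain, in 51 libraries. The 9 CIE (chronic intermittent ethanol) mice received ethanol at 1.6 g/kg in an 8% (w/v) solution and inhaled ethanol vapor (15 to 20 mg per L of air at 10 L/min) for 16 h per day in 4 weekly cycles. The 8 control mice received saline and breathed air in the same kind of chamber, and both groups received pyrazole at 1 mmol/kg, which blocks alcohol dehydrogenase, so that every comparison is between mice that carried this drug. Each mouse gave 3 preparations: astrocytes held on beads against the surface antigen ACSA2, microglia held on beads against Cd11b from the remaining cells, and total homogenate.

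Notch signaling passes between touching cells. A Delta or Jagged ligand binds a Notch receptor on a neighboring cell, proteases that include gamma-secretase release the intracellular domain of the receptor, and this domain joins the DNA-binding protein RBPJ in the nucleus to switch on target genes. The Hes and Hey targets encode basic helix-loop-helix repressors, Nrarp encodes an inhibitor that limits the intracellular domain, and in the brain the pathway is known for keeping neural progenitors undifferentiated, for astrocyte fate and for the vessel wall.

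Hes5 and Nrarp were the members called lower in CIE mice in astrocytes and in total homogenate, so the 250 bases upstream of their start sites are shown first, from the RefSeq promoter table on GRCm38 (mm10), 5′ to 3′ on the strand of the gene. Both genes lie on the plus strand. Capitals mark TGGGAA, the core of the RBPJ site, on either strand (TTCCCA where it lies on the other strand), and the E box CACGTG.
Hes5, chr4:154960673-154960922: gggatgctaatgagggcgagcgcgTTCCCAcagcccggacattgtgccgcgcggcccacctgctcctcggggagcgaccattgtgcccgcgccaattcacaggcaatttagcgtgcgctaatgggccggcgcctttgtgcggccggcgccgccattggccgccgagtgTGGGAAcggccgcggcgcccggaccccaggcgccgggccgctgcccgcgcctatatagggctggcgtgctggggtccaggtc
Nrarp, chr2:25180508-25180757: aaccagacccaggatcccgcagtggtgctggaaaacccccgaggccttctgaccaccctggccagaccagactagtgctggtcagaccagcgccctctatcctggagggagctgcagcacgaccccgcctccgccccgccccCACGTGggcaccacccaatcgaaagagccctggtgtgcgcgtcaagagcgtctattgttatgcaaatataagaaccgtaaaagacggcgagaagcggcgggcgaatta
The Hes5 window held 2 matches to TGGGAA, at -226 on the opposite strand and at -82 on the strand of the gene, counted from the start site. The Nrarp window held no TGGGAA and 1 CACGTG at -108. Among the other members found in the table, Hey2 held 2 matches to TGGGAA at -207 and -3, Notch3 held 1 match to the N box CACGAG at -204, and Dll1, Jag1, Notch1 and Notch2 held none of these motifs. Hes1 and Hey1 had no entry. Each promoter window runs from 250 bases before to 50 bases after a start site, and of 32851 such windows of 27025 genes 25.6% held TGGGAA, 6.475% held CACGAG and 7.15% held CACGTG on either strand. A match describes the letters only.

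Counts assigned to genes ranged from 2082289 to 10041788 per astrocyte library, 571878 to 6026453 per microglia library and 5042926 to 15594154 per homogenate library. The bead fractions held more of most defining markers of their labels than the homogenate did, with an exception in astrocytes. Slc1a2, the glutamate transporter of astrocytes, was at 7392 ± 1566 CPM (library-size scaled counts, here over all 51 libraries, SD, n = 8) in control astrocytes, 187 ± 120 in control microglia and 4781 ± 823 in control homogenate, and P2ry12, a microglial purine receptor, was at 262 ± 122, 1989 ± 388 and 47.9 ± 7.08. Gfap, an intermediate filament of astrocytes, went the other way, at 54.3 ± 24.4 CPM in control astrocytes and 234 ± 47.8 in control homogenate. Other cells were present as well. Astrocyte markers summed to a median of 13780 CPM in control astrocyte libraries, below the sum of oligodendrocyte markers. Microglia markers summed to a median of 3322 CPM in control astrocyte libraries, 733 in control homogenate and 26607 in control microglia. Oligodendrocyte markers summed to a median of 19112 CPM in control astrocyte libraries and 2163 in control homogenate on the same scale. Endothelial markers summed to 1366 and 347 there, and mural markers to 1384 and 240. Control microglia also lay above homogenate in these sums, at 4237 CPM for oligodendrocyte, 812 for endothelial and 729 for mural markers. These sums move with the comparisons of levels between preparations, and their part in them was not tested. In bulk RNA, fewer cells of a type and less RNA per cell cannot be told apart.

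Most members had higher levels in control astrocytes than in control homogenate, and microglia carried a narrower set. Levels are given here as RPKM, reads per kilobase of merged exons and scaled to library size over all libraries, which allows genes to be compared. Hes5 stood at the top in control astrocytes, at 32.6 ± 10.6 RPKM (SD, n = 8), and Notch3 (30.7), Nrarp (29.2), Hes1 (27.7) and Notch1 (26.6) followed at gaps smaller than the larger SD of the neighboring genes. The receptor Notch2 (19.3 RPKM) was set off by more than that spread. Hey1 (10.7) and Jag1 (10.3 RPKM) formed the next pair, and Dll1 (2.59) and Hey2 (2.42 RPKM) were lowest, neither pair differing beyond its spread. In CIE astrocytes Hes5 stood eighth in this order, at 4.96 ± 4.57 RPKM (SD, n = 9), and Notch3 stood at the top with 31.9 ± 5.59.

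The order differed in the other preparations. Control microglia had Hes1 at the top, at 71.5 ± 20.3 RPKM (SD, n = 8), ahead of Notch2 (45.1), Notch1 (24.1) and Notch3 (14.8), each step larger than the larger SD of the neighbors. From Jag1 (2.29) down through Hey1 (1.73), Hes5 (0.920), Dll1 (0.718) and Hey2 (0.492 RPKM) no neighbors in microglia differed beyond their spread. Control homogenate had Hey1 (15.2 ± 2.31) and Hes5 (14.8 ± 1.65 RPKM, SD, n = 8) at the top within their spread, then Nrarp at 7.71, and Hey2 was lowest at 1.25.

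**Figure D1:**
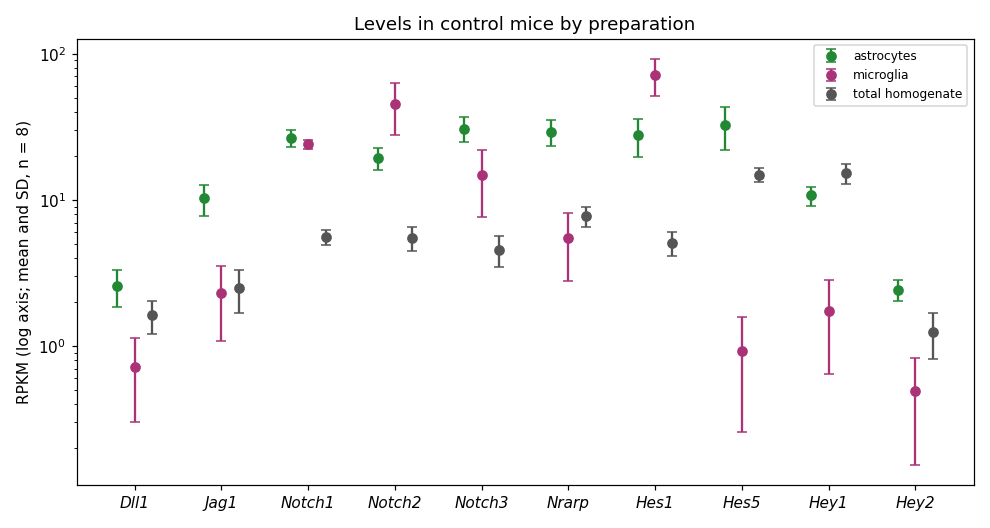
Level of each Notch pathway member in control mice, as RPKM on a log axis, for astrocytes, microglia and total homogenate. Points are means and bars are SDs of 8 mice; Hes5 lies at 32.6 RPKM for astrocytes, 0.920 for microglia and 14.8 for total homogenate, while Hes1 and Notch2 lie highest in microglia.

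Between control astrocytes and control homogenate 10 of 10 members differed in the edgeR test, 9 higher and 1 lower, where 78.8% of all genes tested differed. Notch3 was 2.84 higher on the log2 scale (standard error, SE, 0.213, adjusted p = 7.2e-13), the largest difference of the members, and Hey1 was the exception, at a difference of -0.42 (SE 0.141, adjusted p = 0.00788). Between control microglia and control homogenate 8 members differed, against 84.4% of all genes. The receptors Notch1, Notch2 and Notch3 were higher in microglia by 2.18, 3.10 and 1.77 and the effector Hes1 by 3.89 (SE 0.187). The other 4 were lower there: Hes5 by a difference of -4.15 (SE 0.34), Hey1 of -2.86, Dll1 of -1.03 and Hey2 of -0.90. Nrarp had a difference of -0.34 (adjusted p = 0.0922), which passed with the mouse as a replicate block, at -0.48 (adjusted p = 0.0303), while Jag1 had 0.08 (95% interval -0.38 to 0.55) and its sign turned in other fits. Immediate early genes, which rise when tissue is dissociated, summed to a median of 29722 CPM in control microglia, 5657 in control astrocytes and 612 in control homogenate on the scale of all libraries, the same order as the level of Hes1, and their part in that order was not tested.

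Between the bead fractions of control mice 9 members differed, 7 higher in astrocytes and 2 higher in microglia, against 71.9% of all genes tested. The difference was 5.39 for Hes5 (SE 0.319), the widest of the members, and 2.44 for Hey1, 2.35 for Nrarp and 2.02 for Jag1. Notch2 and Hes1 were lower in astrocytes than in microglia, with differences of -1.20 and -1.37. Notch1 had a difference of 0.16 (95% interval -0.026 to 0.356, adjusted p = 0.13), and DESeq2 placed it at 0.21 (adjusted p = 0.0321).

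In CIE mice 6 Notch pathway members were called lower in astrocytes, and 2 of them also in total homogenate. The members were chosen with earlier results of these data known. Their shares and medians, set beside those of all genes, are therefore a description and not an independent test. Of 10 members tested in astrocytes 6 were lower and none was higher at an adjusted p under 0.05 (edgeR), against 5.13% of all genes called, 2.22% lower and 2.91% higher. The lower members were the ligand Dll1, the receptor Notch1, the feedback inhibitor Nrarp and the effectors Hes1, Hes5 and Hey1. In total homogenate 2 of 10 members, Nrarp and Hes5, were lower, against 0.25% of all genes called, 0.0572% lower and 0.193% higher. In microglia 7 members passed the filter on low counts and 0 of them were called, against 3.47% of all genes called and 1.15% called lower. None of the 7 had groups without overlap (0.465% of all genes). There 1 member had an unadjusted p under 0.05 and DESeq2 called 1 member, Hes1 in both cases. The median log2 fold change of the members tested was -0.51 in astrocytes, where that of all genes was 0.0033, -0.15 in total homogenate (all genes 0.0061) and 0.00061 in microglia (all genes -0.0052).

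**Figure D2:**
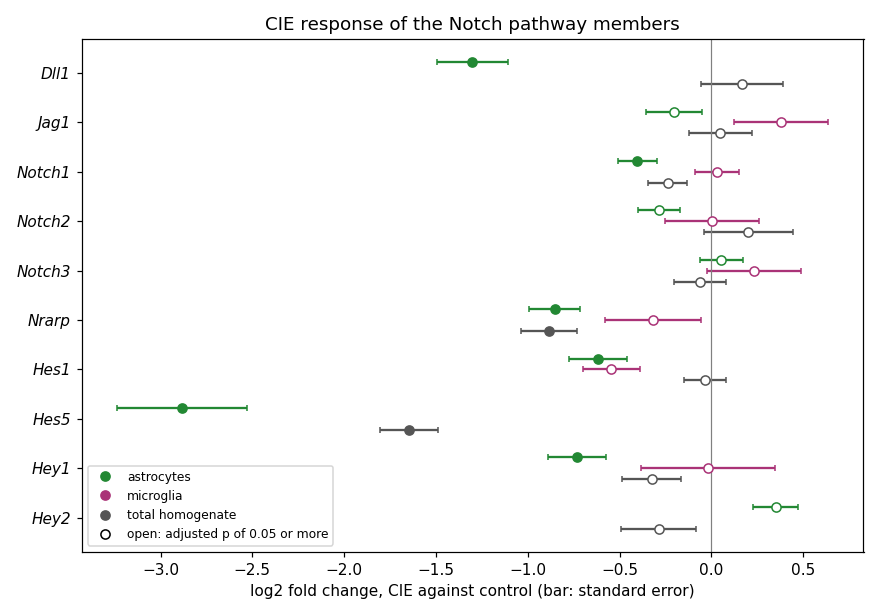
Log2 fold change of each member in CIE against control mice, with its SE, in astrocytes, microglia and total homogenate. Filled points passed an adjusted p under 0.05; Hes5 lies at -2.88 in astrocytes and -1.65 in total homogenate, and Dll1, Hes5 and Hey2 have no microglia point because they had too few counts there.

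Dll1 (chr17:15367354-15376872 on mm10), a Delta-type ligand, was called in astrocytes, and the other member ligand, Jag1, was not. In astrocytes its lowest, median and highest values were 7.38, 12.6 and 16.6 CPM (scaled within the preparation, as are all CPM values that follow) in the 8 control mice and 2.41, 5.33 and 6.27 in the 9 CIE mice. The groups did not overlap, as for 0.396% of all genes in astrocytes, although the gap between the highest CIE and the lowest control mouse was small. Dll1 fell by 1.30 on the log2 scale (SE 0.192, adjusted p = 0.0019), or by 59.4%, and was called in 17 of 17 fits without 1 mouse. In total homogenate it ran from 4.62 to 9.21 CPM in control and from 3.78 to 13.6 in CIE mice, with a log2 fold change of 0.17 (SE 0.222, adjusted p = 0.907). The CIE range there took in the whole control range and reached beyond it on both sides. In microglia Dll1 had 58 reads in all control and 62 in all CIE libraries and was not tested.

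Jag1 (chr2:137081456-137116644), a Jagged-type ligand, was more abundant than Dll1 in astrocytes per length, at 10.3 against 2.59 RPKM in control mice. Its lowest, median and highest values in astrocytes were 45.6, 62.3 and 93 CPM in control and 37.9, 63.3 and 75.2 in CIE mice. The groups overlapped over most of their range. For Jag1 the log2 fold change was -0.20 in astrocytes (SE 0.153, adjusted p = 0.479), 0.38 in microglia (SE 0.256, adjusted p = 0.517) and 0.05 in homogenate (SE 0.171, adjusted p = 0.98).

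Among the receptors Notch1 (chr2:26457903-26516663) fell in astrocytes. Its lowest, median and highest values were 318, 443 and 472 CPM in control and 234, 337 and 400 in CIE mice, and 9 of 9 CIE mice lay below the control median. The groups overlapped, as CIE mouse 08 lay above control mice 03, 20 and 37, and CIE mice 06, 23, 39 and 40 lay above control mouse 03. Notch1 fell by 0.40 on the log2 scale (SE 0.105, adjusted p = 0.0316), a call kept in 9 of 17 fits without 1 mouse. It missed the threshold without mouse 05, 19, 22, 24, 25, 26, 35 or 36, with adjusted p values from 0.054 to 0.0666. Notch1 had a log2 fold change of -0.24 in total homogenate (SE 0.107, adjusted p = 0.507) and 0.03 in microglia (SE 0.119, adjusted p = 0.962).

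Notch2 (chr3:98013527-98150361), a receptor known from myeloid cells as well as neural ones, did not pass in any preparation. In astrocytes its lowest, median and highest values were 142, 237 and 290 CPM in control and 149, 198 and 223 in CIE mice. Control mouse 03 was the only control below the CIE maximum, and 9 of 9 CIE mice lay below the control median. The log2 fold change was -0.29 (SE 0.115, adjusted p = 0.154), and without mouse 03 it was -0.37 (adjusted p = 0.029). Microglia showed a split of Notch2 that did not follow treatment. The 4 mice numbered under 10, 2 control and 2 CIE, ran from 652 to 840 CPM and the other 13 mice from 237 to 523, and the log2 fold change by treatment was 0.00061 (SE 0.256, adjusted p = 1). Notch2 was the single member of the 10 with this separation, in 1 of 3 preparations, and the split was seen in the values and not tested. Other members overlapped in microglia, but some means lay apart in either direction. Notch3 had a mean of 64.2 CPM in the 4 mice and 134 in the other 13, and Notch1 had 379 and 294.

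Notch3 (chr17:32120820-32166852), a receptor known from mural cells of vessels, overlapped between the groups in every preparation. Its lowest, median and highest values in astrocytes were 220, 261 and 353 CPM in control and 228, 277 and 371 in CIE mice. Its log2 fold change was 0.05 (SE 0.116, adjusted p = 0.841) in astrocytes, -0.06 in total homogenate (SE 0.142, adjusted p = 0.962) and 0.23 in microglia (SE 0.257, adjusted p = 0.753). Mural markers had 0 of 8 members called in astrocytes, with a median log2 fold change of 0.07.

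Nrarp (chr2:25180758-25183339), an ankyrin repeat protein that Notch induces and that limits Notch in turn, fell in astrocytes and in homogenate. In astrocytes its lowest, median and highest values were 67, 79.7 and 123 CPM in control and 31, 45.2 and 68.2 in CIE mice. A control and a CIE mouse made the overlap, mouse 35 at 67 and mouse 08 at 68.2 CPM. Nrarp fell by 0.85 on the log2 scale (SE 0.138, adjusted p = 0.00365). In total homogenate the values were 15.7, 19.7 and 23.9 CPM in control and 6.48, 10.4 and 15 in CIE mice. There the groups did not overlap, as for 0.093% of all genes tested in homogenate. Nrarp fell by 0.89 on the log2 scale (SE 0.152, adjusted p = 0.0164), and both calls were kept in 17 of 17 fits without 1 mouse. The difference between the responses in astrocytes and homogenate was 0.04 (95% interval -0.41 to 0.50, adjusted p = 1). In microglia Nrarp ran from 3.42 to 22.8 CPM in control and from 5.92 to 16.9 in CIE mice, and its log2 fold change was -0.32 (SE 0.261, adjusted p = 0.628).

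Hes5 (chr4:154960923-154962371) is a repressor found in neural progenitors and glia. The fall of this gene was the strongest by p-value among all genes tested in astrocytes and again in total homogenate. In astrocytes the lowest, median and highest values were 18.1, 49.5 and 69.7 CPM in control and 1.86, 6.18 and 25.8 in CIE mice, from 59 to 395 reads per control and 10 to 81 per CIE library. All CIE mice but mouse 08 lay at or below 8.01 CPM, under the lowest control, and mouse 08 lay above control mouse 35. The log2 fold change was -2.88 (SE 0.353, adjusted p = 0.000827), a fall by 86.4%, and without mouse 08 it was -3.23 (adjusted p = 8.05e-06). In total homogenate the values were 16.8, 20 and 23.7 CPM in control and 3.7, 6.83 and 8.48 in CIE mice. These groups stood well apart. Hes5 fell by 1.65 on the log2 scale in homogenate (SE 0.159, adjusted p = 4.58e-05), or by 68.1%, and both calls were kept in 17 of 17 fits without 1 mouse.

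Microglia held almost no Hes5, with 19 reads in all control and 27 in all CIE libraries, from 0 to 5 and from 0 to 8 per library, and the gene was not tested there. A non-coding gene, Gm20421, lies on the opposite strand of Hes5 in GENCODE M21 and is not a row of the count files, and Nrarp likewise overlaps the antisense gene Gm38287. Genes of the opposite strand also overlap Dll1 (A930024N18Rik), Notch1 (0610009E02Rik and Gm13568) and Notch3 (Gm17276), and none of them is a row of the files. The use of strand in the counting is not given in the sources used here, so reads of these pairs cannot be told apart.

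**Figure D3:**
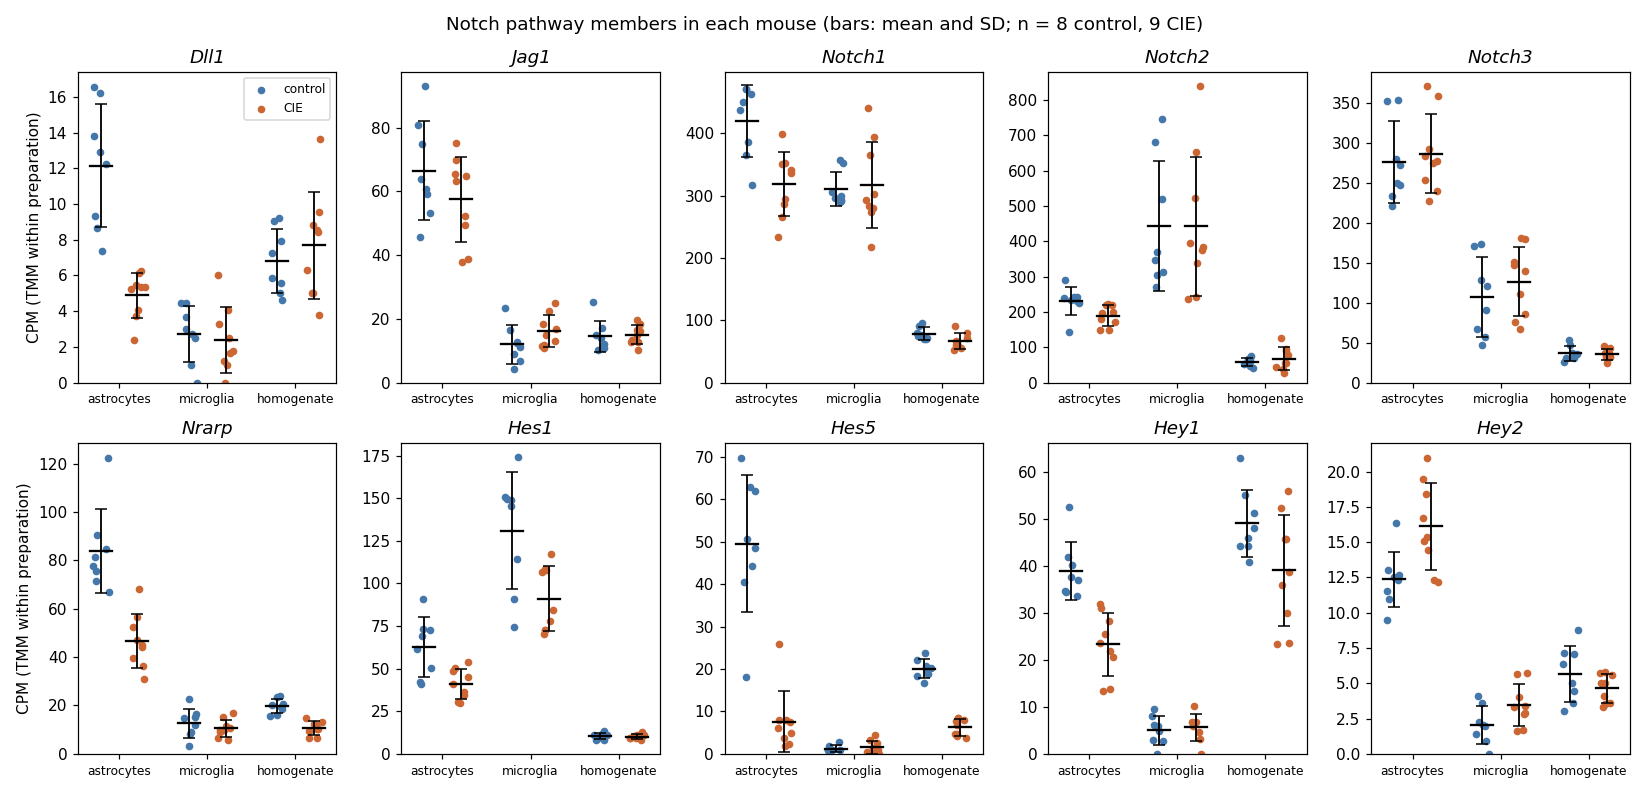
CPM of each member (linear axes from 0, scaled within the preparation) in every control and CIE mouse for astrocytes, microglia and total homogenate. Each point is a mouse and bars mark mean and SD of 8 control or 9 CIE mice; Hes5 and Nrarp separate the groups in total homogenate, Dll1 and Hey1 separate them in astrocytes, and CIE mouse 08 is the high Hes5 point at 25.8 CPM.

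Hey1 (chr3:8663359-8667256), a repressor best known from vessels and neural cells, fell in astrocytes without overlap. Its lowest, median and highest values were 33.7, 37.3 and 52.5 CPM in control and 13.3, 23.7 and 31.8 in CIE mice. With Dll1 it made up the 2 of 10 members whose groups did not overlap in astrocytes. Hey1 fell by 0.73 on the log2 scale (SE 0.157, adjusted p = 0.012), in 17 of 17 fits without 1 mouse. In total homogenate, where Hey1 was the most abundant member per length, it ran from 40.8 to 63 CPM in control and from 23.5 to 55.8 in CIE mice. The 5 lowest mice there were CIE mice, and the others mixed with controls. Hey1 had log2 fold changes of -0.32 in total homogenate (SE 0.161, adjusted p = 0.566) and -0.02 in microglia (SE 0.365, adjusted p = 0.993).

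Hes1 (chr16:30064384-30067796), a repressor that many signals besides Notch induce, had lower values in both bead fractions of CIE mice. In astrocytes its lowest, median and highest values were 40.9, 65.5 and 90.9 CPM in control and 29.6, 41.3 and 53.7 in CIE mice, with overlap between 40.9 and 53.7 CPM. Hes1 fell there by 0.62 on the log2 scale (SE 0.158, adjusted p = 0.029) and was called in 12 of 17 fits without 1 mouse. It missed the threshold without mouse 20, 25, 26, 35 or 36, with adjusted p values from 0.0533 to 0.0634. In microglia the values were 74.3, 147 and 174 CPM in control and 70.2, 84.3 and 117 in CIE mice. Controls 03, 05 and 22 lay among the CIE mice and 5 of 8 controls lay above every CIE mouse. The log2 fold change in microglia was -0.54 (SE 0.157, adjusted p = 0.0604), which passed with DESeq2 (adjusted p = 0.0278) and with a covariate for the mouse number ranges (adjusted p = 0.0168). In total homogenate Hes1 had -0.03 (SE 0.117, adjusted p = 0.977). Of 8 immediate early genes 0 were called in astrocytes and 0 in microglia, with median log2 fold changes of -0.03 and -0.15. Their sums had medians of 6283 CPM in control and 5660 in CIE astrocytes, and 26516 and 23715 in microglia. Single genes varied. Atf3 had means of 3074 CPM in control and 2139 in CIE microglia on the scale of all libraries. Dusp1 went the other way, at 1892 and 2029. The part of tissue dissociation in the Hes1 values was not tested.

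Hey2 (chr10:30832359-30842801), a repressor found in arterial and cardiac cells, was the member with the highest log2 fold change in astrocytes, 0.35 (SE 0.124, adjusted p = 0.103). Its values ran from 9.47 to 16.4 CPM in control and from 12.2 to 21 in CIE mice, and 7 of 9 CIE mice lay above the control median. Hey2 had a log2 fold change of -0.29 in total homogenate (SE 0.202, adjusted p = 0.737), and its 56 control and 94 CIE reads in microglia were too few for the test.

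The mice carry numbers in 3 ranges, 03 to 08, 19 to 26 and 35 to 41, and each range held both treatments. The members called in astrocytes were lower in CIE mice within every range. For Hes5 the difference of mean log2 CPM was -1.84, -4.15 and -2.16 in astrocytes and -1.25, -2.06 and -1.55 in total homogenate, in the order of the ranges. For Nrarp it was -0.68, -1.09 and -0.64 in astrocytes and -0.63, -0.94 and -1.03 in total homogenate. Dll1 in astrocytes had -1.02, -1.12 and -1.52, and Hey1 had -0.80, -1.03 and -0.38. The falls of Notch1 and Hes1 in astrocytes were small among the 4 mice numbered 03 to 08, at -0.08 and -0.09, and larger in the other ranges.

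**Figure D4:**
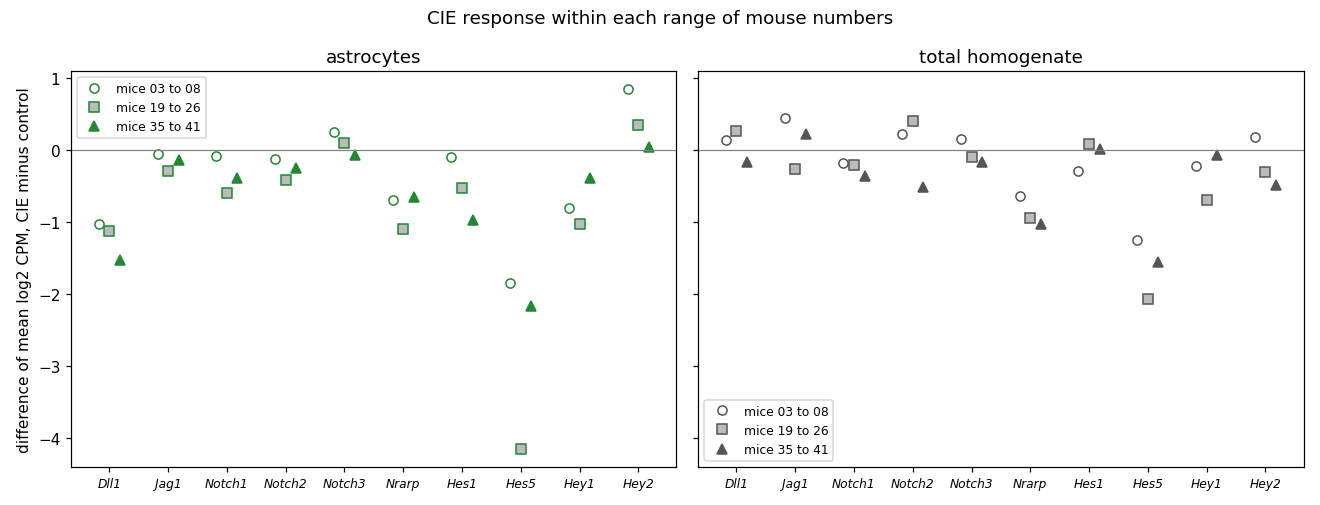
Difference of mean log2 CPM between CIE and control mice within each range of mouse numbers, for the 10 members in astrocytes and total homogenate. Circles are mice 03 to 08 (2 control, 2 CIE), squares mice 19 to 26 (3 and 4) and triangles mice 35 to 41 (3 and 3); Hes5 and Nrarp lie below 0 in every range of both preparations.

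The responses were also compared between preparations, in interaction terms of a model of all 51 libraries, which came from the same mice. Of the 10 members 1 differed between microglia and astrocytes, against 0.529% of all genes. This was Hes5, which had too few microglia reads for the test of that preparation and entered the model through its reads in the others. With 0 to 8 reads per microglia library a fall there could not have been seen, so the estimate of 3.11 (SE 0.792, adjusted p = 0.0494) does not show that the responses differed. The adjusted p was 0.0165 with the mouse as a replicate block, 0.000807 with DESeq2, 0.0515 with RLE scaling, another size factor, and 0.0697 with no expression filter. The same limit holds for Dll1 and Hey2 in the comparisons with microglia. Between astrocytes and total homogenate 0 members passed in edgeR (background 0.00695%), 4 had an unadjusted p under 0.05 and DESeq2 called 1. Dll1 had the smallest p of these, with a response -1.46 apart (SE 0.338, adjusted p = 0.202), and it was the member that DESeq2 called (adjusted p = 0.0331). Hes5 differed by -1.20 between astrocytes and homogenate (95% interval -1.96 to -0.45, not adjusted for the number of genes, and adjusted p = 0.658). Between microglia and total homogenate 0 members passed in edgeR and 0 in DESeq2 (background 0.828%), and 3 had an unadjusted p under 0.05.

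The other genes of the pathway were described from a list. This list of 49 genes covered further ligands, the receptor Notch4, glycosyltransferases, trafficking and turnover proteins, proteases, nuclear cofactors and further HES and HEY genes. In astrocytes 43 were tested, 2 rose and 2 fell, where 5.13% of all genes were called, and 8 were called when the mouse number range was a covariate. Dll4, a Delta-type ligand of vessel tips, was at 31.2 ± 12.6 CPM in control (SD, n = 8) and 12.6 ± 7.38 in CIE mice (SD, n = 9), with a log2 fold change of -1.36 (SE 0.311, adjusted p = 0.0175) kept in 17 of 17 fits without 1 mouse. Tle4, a corepressor of the HES proteins, fell by 0.29 (SE 0.0825, adjusted p = 0.0459). The gamma-secretase genes Psen2, its catalytic subunit, and Aph1c rose by 0.36 (SE 0.0997, adjusted p = 0.0396) and 0.84 (SE 0.242, adjusted p = 0.0482). These 3 weaker calls were kept in 6, 9 and 4 of 17 fits without 1 mouse, in the order Tle4, Psen2 and Aph1c. Tle4 was kept only without mouse 03, 05, 08, 20, 40 or 41 and Aph1c only without mouse 03, 06, 08 or 40, while Psen2 was lost without mouse 05, 19, 22, 24, 25, 26, 36 or 39. Endothelial markers, which share a cell type with Dll4, had 0 of 8 members called in astrocytes at a median log2 fold change of -0.0013. Their sums ran from 1031 to 2285 CPM in control and 947 to 2187 in CIE mice. The part of endothelial cells in the values of Dll4 was not tested.

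In microglia 42 of the list were tested, 1 rose and 1 fell, where 2.31% of all genes were called higher and 1.15% lower, so that nothing is read from the count. Notch4, a receptor known from endothelial cells, was at 59 ± 9.61 CPM in control (SD, n = 8) and 124 ± 67.9 in CIE mice (SD, n = 9), with a log2 fold change of 1.09 (SE 0.26, adjusted p = 0.0246) that was lost when mouse 20 (adjusted p = 0.059) or mouse 26 (adjusted p = 0.0506) was left out. Dtx4, a Deltex ubiquitin ligase, fell from 394 ± 55.1 to 270 ± 63.7 CPM, a log2 fold change of -0.54 (SE 0.137, adjusted p = 0.031) kept in 10 of 17 such fits. It was lost without mouse 03, 05, 20, 26, 35, 36 or 37. Snw1, a nuclear cofactor, had the next smallest p, with -0.22 (SE 0.079, adjusted p = 0.139). Markers of neutrophils rose in these libraries, 5 of 5 tested, with sums from 58.1 to 166 CPM in control and 50.7 to 4176 in CIE mice, while endothelial markers had 0 of 8 called. Of the microglia markers 1 of 8 fell (Fcrls) and of the oligodendrocyte markers 1 of 8 rose (Mobp), no marker of the other lists was called, and the ependymal marker Tmem212 was at 0 in all microglia libraries. The part of neutrophils and other cells in the values of Notch4 and Dtx4 was not tested.

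In total homogenate 46 of the list were tested and 0 passed in edgeR (0.25% of all genes did), with 3 at an unadjusted p under 0.05 and 1 called by DESeq2. The 3 with the smallest p were Dll4, at -0.88 (SE 0.214, adjusted p = 0.0998, and 0.0135 in DESeq2), Aph1b at 0.21 (adjusted p = 0.35) and Dtx4 at -0.19 (adjusted p = 0.507). In astrocytes and in homogenate alike, 9 of 9 CIE mice had less Dll4 than the control median. Rbpj, the DNA-binding partner of the released receptor, was among the genes that passed in no preparation.

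**Figure D5:**
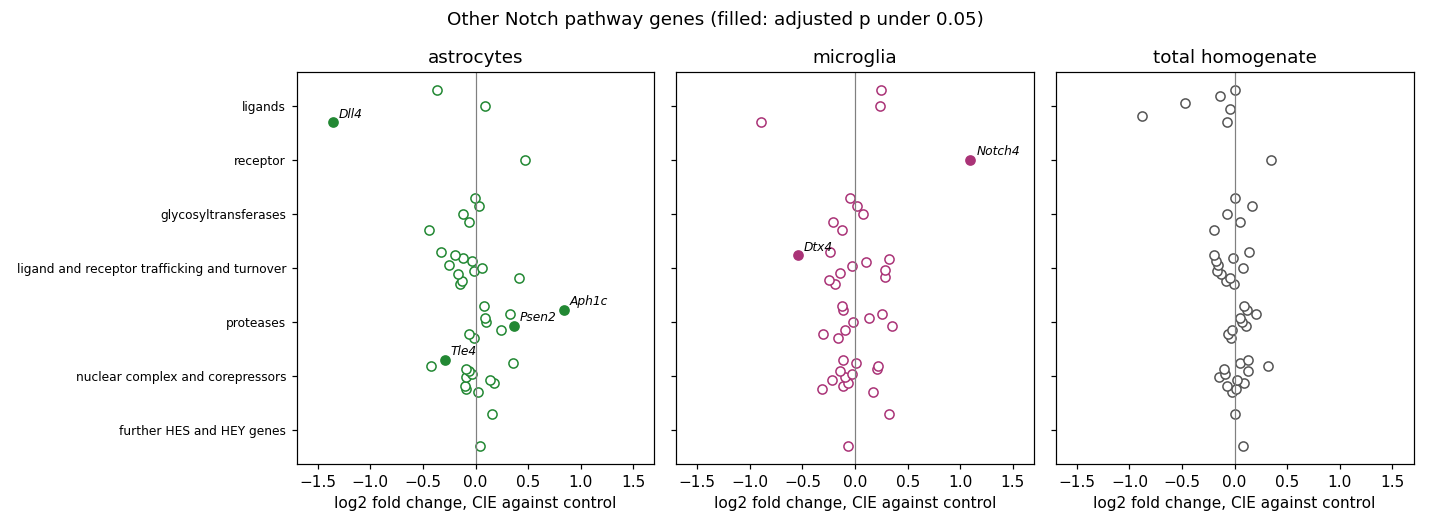
Log2 fold change in CIE against control mice of the other Notch pathway genes, by class, in astrocytes (43 genes), microglia (42) and total homogenate (46). Each point is a gene and filled, named points passed an adjusted p under 0.05; most points lie near 0, with Dll4 at -1.36 in astrocytes and Notch4 at 1.09 in microglia.

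Markers of other cells gave the following beside the falls in astrocytes and homogenate. Of 8 astrocyte markers 1, the connexin Gjb6, was called higher in each of the 2 preparations and none was called lower. The median log2 fold change of the list was below 0, at -0.14 in astrocytes and -0.13 in homogenate. In astrocyte libraries the sums ran from 10107 to 17949 CPM in control (median 15354) and from 9217 to 15774 in CIE mice (median 12556). The list of ependymal and neural progenitor markers, cells in which Hes5 is also expressed, had 4 tested in astrocytes, where Foxj1 rose and Sox11 fell, and 5 tested in homogenate, where none was called. Its sums ran from 218 to 318 CPM in control and 185 to 269 in CIE astrocyte libraries and from 110 to 202 and 81.8 to 205 in homogenate. Of 6 oligodendrocyte precursor markers Gpr17 fell in astrocytes, and the median log2 fold change of the list was -0.64 there and -0.07 in homogenate. Vcan had -0.90 (adjusted p = 0.0975) and C1ql1 -1.62 (adjusted p = 0.154) in astrocytes, while the sums, to which Sox10 and Cspg4 gave most, ran from 521 to 873 CPM in control and 540 to 744 in CIE mice. Border macrophage markers rose in 2 of 6 cases in astrocytes, with sums from 50.2 to 213 and from 81.9 to 316 CPM. Neuron and oligodendrocyte markers had 1 gene called higher each in astrocytes, and microglia, endothelial and mural markers had none. The neuron list as a whole leaned the other way, with a median log2 fold change of -0.58 over the 7 tested in astrocytes. For the oligodendrocyte list this median was 0.20. The part of these cells in the results was not tested.

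The genes with the profile most like that of Hes5 over the 51 libraries were Vegfa, a vessel growth factor, Fabp7, a fatty acid binding protein of radial glia and astrocytes, Myom3, Etv4 and Mageh1, of 14300 genes with at least 1 CPM. Likeness was the root mean square difference of log2 CPM centered on each gene's mean, which was 1.00 for Vegfa, 1.08 for Fabp7, 1.08 for Myom3, 1.09 for Etv4 and 1.10 for Mageh1, against a median of 2.05 over all genes and 1.51 for Nrarp, at rank 954. Much of the spread of Hes5 that enters this measure lay between preparations, with a log2 difference of 5.39 between control astrocytes and control microglia against -2.88 between treatments in astrocytes. Vegfa had 365 CPM in control and 161 in CIE astrocytes, 15 and 14 for microglia and 98.9 and 60.4 for total homogenate on the scale of all libraries. Fabp7 had 21.9 and 7.51, 1.00 and 1.60, and 21.8 and 7.76 CPM in the same order. Both passed in astrocytes, with log2 fold changes of -1.19 (adjusted p = 0.00705) and -1.60 (adjusted p = 0.0385). Neither passed in total homogenate (adjusted p = 0.0752 and 0.0661). Myom3 (-0.78, adjusted p = 0.0303) and Etv4 (-0.88, adjusted p = 0.0122) also passed in astrocytes, and Mageh1 (-0.38, adjusted p = 0.133) did not. In total homogenate Myom3, Etv4 and Mageh1 had adjusted p values of 0.32, 0.542 and 0.479. These genes were picked by likeness to Hes5 over the same libraries, CIE mice included, so their tests are not independent of that choice.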

How the data were processed

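RNA libraries of 3 preparations from each of 17 mice were analysed. Adapters were trimmed by the authors with Cutadapt 1.8. Alignment to mm10 was by STAR 2.5.0a, and Picard 1.141 served to filter duplicates. Genes were quantified in HTSeq 0.6.1p1. The deposited values are whole, unnormalized counts. Rows of reads assigned to no gene, 22.1% to 67.1% of a library, were left out. The study set aside 4 microglia libraries of little RNA and 3 further outliers, which are not analysed here. The annotation release and strand setting of the counting are not given in the sources used here.

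Each preparation was fitted by the quasi-likelihood test of edgeR 4.0.16 (R 4.3.3) after filterByExpr and TMM scaling, with p-values adjusted over all genes tested by Benjamini-Hochberg and a threshold of 0.05, where the study used DESeq2. Levels were compared over the 24 control libraries and responses over all 51. Exon lengths, positions and overlaps came from GENCODE M21. Promoter windows came from the RefSeq table. Alternatives were DESeq2 1.42.0, RLE scaling, no expression filter, the mouse number range as covariate, leaving out each mouse and the mouse as a replicate block. The preparations share mice, so the numbers pair them; deviations of the same mouse had a median correlation of 0.149 between astrocytes and microglia, 0.112 between astrocytes and homogenate and 0.0394 between microglia and homogenate. The test was tested on simulated data with known changes. At a true log2 change of 0.5 it recovered 52.3% of changed genes in astrocytes, 28.4% in microglia and 33.3% in homogenate. At a change of 1 it recovered 90.5%, 89.1% and 79.4%. Small changes could thus be missed in every preparation, and more often in microglia and homogenate. Counting precision rests on the reads given beside low genes.

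The members, the pathway list and the marker lists were chosen with earlier results of these data known. Named were all 10 members, the pathway genes with an adjusted p under 0.05, or the 3 with the smallest p where fewer passed, and the 5 genes nearest to Hes5. Marker genes called in astrocytes or microglia, Gfap, Vcan, C1ql1, Atf3, Dusp1 and Rbpj were named after their values were seen. Protein sequences were not used here. Plots were drawn with matplotlib 3.10.9 in Python 3.11.15.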

Additional observations from a re-analysis of the deposited data

Results flagged for a closer look

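Of 60 sets of values (10 members in 6 groups of mice), 5 had a mouse set far from the others of its group, and chance alone marks about 1 in 20. CIE mouse 08 had 25.8 CPM of Hes5 in astrocytes, from 64 reads, where the next mouse had 8.01. Control mouse 03 stood apart in astrocytes for Notch2 (142 CPM from 301 reads, next 227), Nrarp (123 CPM from 259 reads, next 90.5) and Hey1 (52.5 CPM from 111 reads, next 41.9). Control mouse 22 had 25.2 CPM of Jag1 in total homogenate, where the next mouse had 17.1. The interaction estimate for Hes5 between microglia and astrocytes was 3.11 on the log2 scale (edgeR adjusted p = 0.0494, 0.0515 with RLE scaling and 0.0697 with no expression filter), but microglia held 0 to 8 Hes5 reads per library, where a fall could not have been seen, so a difference between the responses is not shown.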

How the results depend on the processing

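With 1 mouse left out, members called numbered 4 to 7 for astrocytes, 0 to 1 for microglia and 2 to 2 for homogenate, and genes of the pathway list 1 to 7, 0 to 2 and 0 to 0. Members called in microglia numbered 1 with DESeq2 and 1 with the mouse range as covariate, which was Hes1 each time. The pathway list in astrocytes gave 2 genes with no expression filter and 8 with the mouse range as covariate, and in total homogenate 1 with DESeq2. Responses that differed numbered 1 with DESeq2 between astrocytes and homogenate, and 0 with RLE scaling or no expression filter between microglia and astrocytes. Of the 5 genes most like Hes5, 2 were kept with a prior count of 0.5. The causes were not tested. Signs turned for Hey1 in microglia (0.038 with DESeq2, 0.0028 with no filter, 0.081 with the mouse range) and for Jag1 between control microglia and homogenate (-0.071 with the replicate block, -0.12 with DESeq2, -0.034 with RLE scaling, -0.038 with no filter). Without 1 mouse they turned for Notch3 (-0.0019 to 0.11) in astrocytes, for Notch1 (-0.043 to 0.082), Notch2 (-0.17 to 0.16) and Hey1 (-0.14 to 0.15) in microglia, and for Jag1 (-0.0037 to 0.21), Notch3 (-0.12 to 0.035) and Hes1 (-0.082 to 0.034) in total homogenate. None of these had been called. The replicate block moved the call of Nrarp between control microglia and homogenate to -0.48 (adjusted p = 0.0303) and changed no other call of a member. DESeq2, RLE scaling and no filter also called it, at -0.49, -0.46 and -0.47, and RLE scaling moved the median of all genes there by -0.111. Microglia depth limits Dll1, Hes5 and Hey2.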
